A study of Homo sapiens with 2 samples.

Results

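The peaks described here are sites of middling height in a map of where the protein SNRPA1 was crosslinked to RNA. They were chosen by their deposited height alone: every distinct interval that the authors' list of peak heights gives as 5 to 9 tags high. There were 412 of them among the 1373 distinct intervals of that list (30%), against 821 of 3 or 4 tags and 140 of 10 or more. SNRPA1 was immunoprecipitated with an antibody to the endogenous protein from MDA-231-LM2 cells, which descend from the breast cancer line MDA-MB-231 and were derived for metastasis to the lung, after crosslinking to RNA (irCLIP). The 2 biological replicates form 1 group. The height list is pooled per its name, and the second list, made with the peak caller CLIPper, names no sample, so neither a spread between replicates nor the depth of a single library can be given. No control library was analysed here.

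SNRPA1, known in the older literature as U2 A prime, is a core protein of the U2 small nuclear ribonucleoprotein. This particle pairs through its own snRNA with the branch site near the end of an intron, which makes it part of every round of removal of major-class introns from pre-mRNA. Because introns fill most of a long gene, an early spliceosomal protein can meet RNA along the whole length of a transcript. SNRPA1 has also been studied as a regulator of alternative splicing in metastatic breast cancer cells, with PLEC and ERRFI1 among the transcripts followed. Whether the peaks described here lie in exons, introns or UTRs, and which bases they cover, was not analysed here, since it needs the hg19 genome with its gene models, and no sequence is shown.

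Most of the 412 peaks were near the lower edge of their range. There were 168 peaks of 5 tags, 116 of 6, 58 of 7, 45 of 8 and 25 of 9. Just outside the limits lay 388 peaks of 4 tags and 20 of 10 tags. Height chose these peaks, so these numbers only describe them. A peak of 5 tags has an exact 95% Poisson interval of 1.62 to 11.7 tags and a peak of 9 tags one of 4.12 to 17.1, so single peaks at opposite ends of the range overlap in counting error, as do peaks just inside and just outside it. The 412 peaks held 2527 of the 11999 tags summed over all peak heights (21.1%), while the 140 taller peaks held 55.2%. By strand, 227 lay on the plus and 185 on the minus strand.

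**Figure D1:**
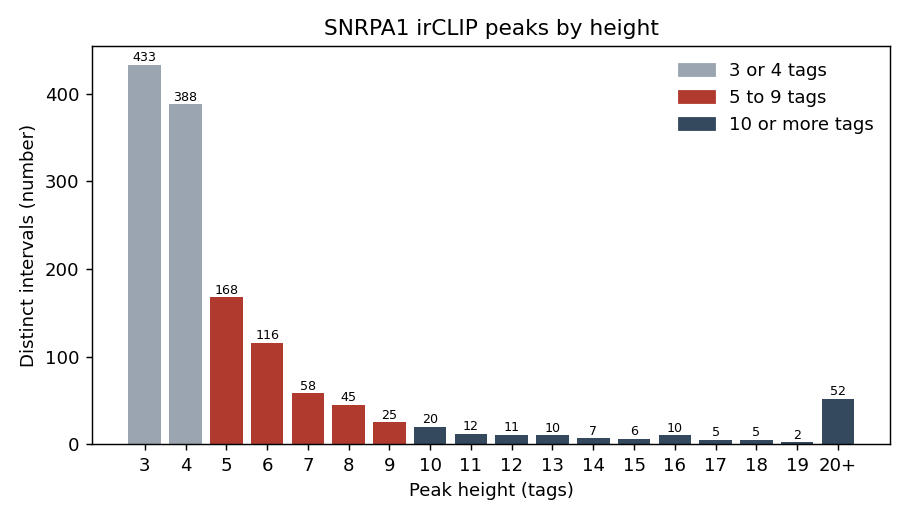
Number of distinct intervals (y axis) at each peak height in tags (x axis, with heights of 20 or more joined in the last bar); colours mark peaks of 3 or 4, 5 to 9 and 10 or more tags. The numbers fall from 168 at 5 tags to 25 at 9 tags, with 388 at 4 and 20 at 10.

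The 25 peaks of 9 tags, the tallest of the set, lay in genes of varied function. DYNC2H1 encodes the heavy chain of the dynein that moves cargo inside cilia, and its peak (hg19 chromosome 11, 103037721 to 103037753, plus strand) had 10 CLIPper reads. PDE4D encodes a cAMP-degrading phosphodiesterase and also had 10 reads at its 9-tag peak (chromosome 5, 58394510 to 58394543, minus strand). RNF168, a ubiquitin ligase of the DNA damage response, had 27 reads (chromosome 3, 196228914 to 196228947, minus strand). KIF6, a kinesin motor gene, had 33 (chromosome 6, 39428299 to 39428330, minus strand), and NCOA1, a coactivator of nuclear receptors, had 13 (chromosome 2, 24815452 to 24815483, plus strand). The 9-tag peak in TIAL1, which encodes an RNA-binding protein that regulates splicing and translation, was the tallest of the set on no CLIPper interval (chromosome 10, 121334081 to 121334113, minus strand). Equal height therefore went with read numbers from 9, in the zinc finger gene ZNF514, to 161, in the importin gene KPNA5.

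The peaks were almost uniform in width. The median was 33 nt, with quartiles of 32 and 34 nt and extremes of 22 and 35 nt, and 391 of 412 (94.9%) were 30 to 35 nt wide. The median was the same 33 nt in peaks of 3 or 4 tags and in peaks of 10 or more, of which 92.3% and 94.3% lay in that band. Across the 412 peaks width and height had a Spearman correlation of -0.034, given as a description because the peaks share the same libraries. The list's name carries the term halfPH, and how the edges of an interval were set was not analysed here. The width is therefore not read as the extent of a contact. The narrowest peak, 22 nt, was in PHF8, which encodes a histone demethylase (chromosome X, 54053348 to 54053369, minus strand, 6 tags), followed by 25 nt in XKR6 and 27 nt in ARL15. A width of 35 nt was reached in ADGRV1, ANKRD30BL, SPAG16 and ZMIZ1.

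Beside each height the list gives a quantity named PH0, which the sources used here do not define, written to 2 decimals. It was 0.00 at 302 of the 412 peaks (73.3%), and there the ratio of height to PH0 is only bounded, at more than 1000. At the other 110 peaks the ratio ran from 66.7 to 900, with a median of 500. Since the bounded peaks cannot be ranked, no gene with the highest ratio is named. The lowest ratios were those of MALAT1, a nuclear long noncoding RNA, with 6 tags and a PH0 of 0.09, TMEM107 with 6 and 0.09, RPL7A, a ribosomal protein gene, with 6 and 0.07, and the interval shared by ATN1 and C12orf57 with 5 and 0.05. PH0 was larger in shorter genes. The genes of entries with a PH0 of 0.00 had a median length of 167 kb, those with 0.01 or 0.02 one of 31.3 kb and those with 0.03 or more one of 9.98 kb (316, 91 and 22 entries).

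The deposited P of these peaks reached the lowest value in the list, 1e-100, at 174 of 412 (42.2%). That share was 0 of 821 among peaks of 3 or 4 tags and 95 of 140 (67.9%) among taller peaks. P stands beside the height in the same list and is not used as an independent measure. Within a gene it could be the same at unequal heights, as for the peaks of 9 and 7 tags in TACC2, both at 5.1e-09. The median P was 2.66e-08 at 5 tags, 9.045e-10 at 6 tags and 1e-100 at 7 to 9 tags. The highest P of the set was 0.0249, for a 5-tag peak in HDAC8, a histone deacetylase gene (chromosome X, 71581789 to 71581821, minus strand). The same gene holds a peak of 102 tags, whose centre is 15108 nt away, and the PH0 of its 5-tag peak was 0.03.

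Nearly all of the peaks were also found by CLIPper, with somewhat more reads than tags. An interval of the CLIPper list lay on 398 of the 412 peaks (96.6%, 95% Wilson interval 94.4 to 98.0), taking an overlap of at least 1 nt on the same strand. Over all 1373 peaks the share was 97.2%, so the peaks of 5 to 9 tags sat at the background of the list. The 398 CLIPper intervals had a median of 10 reads, with quartiles of 7 and 14, a lowest value of 3 and a highest of 161. In peaks of 3 or 4 tags the median was 6 reads and in those of 10 or more it was 33. Both lists were deposited for the same libraries, so reads and tags do not replicate each other.

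Median reads were higher or equal at each greater height inside the set, with wide overlap between neighbouring heights. The median was 8 reads at peaks of 5 tags (4 to 42), 10 at 6 tags (3 to 100), 13 at 7 tags (7 to 109), 13 at 8 tags (7 to 81) and 16.5 at 9 tags (9 to 161). The Spearman correlation of height and reads was 0.496 over the 398 sites. The sites share libraries and depth, so it is a description, as is the 0.683 over 1335 sites of the whole list. The ratio of reads to tags had a median of 1.67 with quartiles of 1.2 and 2.2, and lay between 1 and 3 at 349 of the 398 sites (87.7%). Reads equalled tags at 55 sites.

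**Figure D2:**
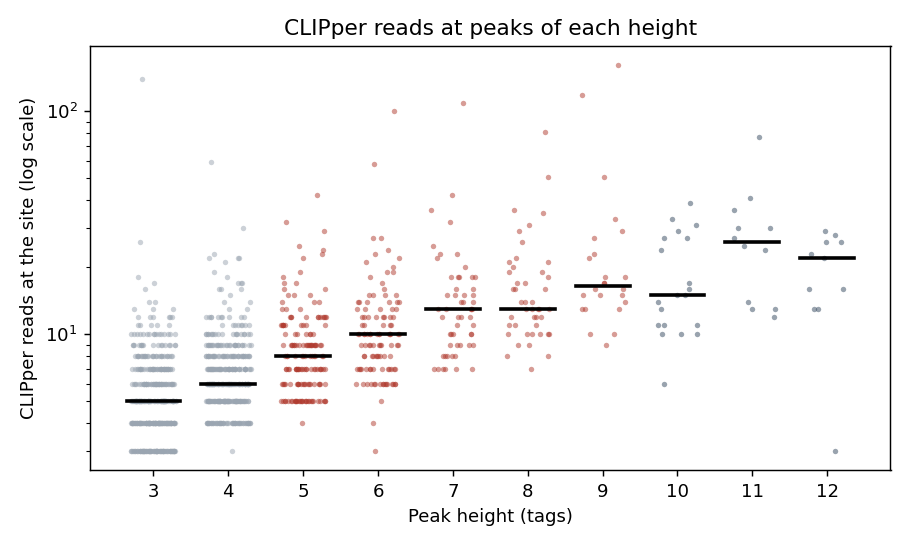
CLIPper reads at each site (y axis, log scale) against peak height in tags (x axis, 3 to 12), 1 point per peak that lies on a CLIPper interval, with black bars at the medians and red points for peaks of 5 to 9 tags. The medians go from 8 reads at 5 tags to 16.5 at 9 tags, and a few red points reach 100 reads or more.

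At 14 sites the CLIPper list gave at least 5 reads for each tag. The highest ratios were 17.9 in KPNA5, which encodes an importin of the alpha family that carries cargo into the nucleus (161 reads, 9 tags), and 16.7 in CAPZA2, a subunit of the actin capping protein (100 reads, 6 tags). DONSON, a DNA replication factor gene, followed at 15.6 (109 reads, 7 tags), WDR27 at 13.1 (118 reads, 9 tags) and NCOA4, the receptor that targets ferritin for autophagy, at 10.1 (81 reads, 8 tags). PET117, a gene for assembly of respiratory complex IV, had 58 reads at 6 tags. PARN, a poly(A)-specific ribonuclease, had 51 reads at 9 tags, C19orf18 had 51 at 8 tags, STON1 had 42 at 7 tags, and EDIL3, which encodes an integrin-binding matrix protein, had 42 at 5 tags. These sites stood well above the upper quartile of 14 reads although their heights were ordinary. The labels do not say whether repeated reads were removed before CLIPper was run, and the part of repeated reads in these ratios was not tested.

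Fewer reads than tags were found at 5 sites. Among them were MALAT1 with 3 reads for 6 tags, a site in the demethylase-family gene JMJD1C with 4 for 5, the mitochondrial ribosomal protein gene MRPS33 with 5 for 6, and NFIC, a transcription factor gene, with 7 for 8. MALAT1 also shared the lowest ratio of height to PH0 with TMEM107, at 66.7, so it was at the lower end by both measures.

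The intervals of both lists coincided closely in position. Of the 398 peaks, 357 (89.7%) lay wholly inside their CLIPper interval, which had a median width of 37 nt. That share was 76.9% in peaks of 3 or 4 tags and 61.2% in taller peaks. The summit marked by CLIPper was within 2 nt of the centre of the peak at 296 sites (74.4%) and more than 10 nt away at 6, with a median offset along the strand of 0 nt. In taller peaks the summit was within 2 nt at 37.4%. More than 1 CLIPper interval lay on 40 of the 412 peaks, against 60 of the 140 taller ones.

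Many of the peaks lay on the CLIPper interval with the most reads of its gene, as in the list as a whole. At 168 of the 398 sites (42.2%) the Ensembl gene of the interval taken held no other CLIPper interval. At the other 230 the interval on the peak had the most reads of its gene in 164 cases (71.3%, Wilson interval 65.1 to 76.8), ties included, against 67.0% over all peaks. There it held a median of 47.6% of the reads listed for the gene. Some of these genes had only 2 CLIPper intervals, both on the peak itself, which makes the peak the strongest site by construction. In KPNA5 each of them was listed with 161 reads. Whether the sum of 322 counts the same reads more than once was not tested. The share with the most reads was 61.6% for peaks of 3 or 4 tags and 81.4% for peaks of 10 or more. Where intervals on a peak tie in reads, the Ensembl gene taken can differ from the gene named. The 8-tag site in MACROD2 is thus counted among the 168, while its 6-tag site was filed under a gene with 8 intervals.

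The 14 peaks on no CLIPper interval included 5 in long noncoding RNA genes, namely LINC01138 with 5 tags, LINC00379 and FILNC1 with 6 and LOC100506207 and LOC729732 with 7. The others were in TIAL1, VHL, the tumour suppressor that marks hypoxia-inducible factors for degradation (6 tags), the pseudogene HTATSF1P2, IGSF1, YY1AP1, PCDH11X, PLEC, the interval shared by SPACA5 and SPACA5B, and MIR548G. The name MIR548G is doubtful for its site: the peak of 7 tags lies on hg19 chromosome 3 (99342656 to 99342687, minus strand), while the RefSeq table of assembly GRCh38.p14 places that microRNA gene on another chromosome. It was the single disagreement in chromosome among the 429 named entries.

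The peaks were assigned to 409 genes, of which 381 were protein-coding, 20 long noncoding RNA genes, 4 transcribed pseudogenes, 2 small nucleolar RNA genes and 1 a microRNA gene, with 1 identifier unnamed. The peak lay on the strand of its gene at 342 of 343 entries whose gene strand is recorded in the table, the exception being NCOA4, whose strand the newer assembly gives as minus. Agreement of strand follows if peaks were assigned by strand, so it is no test of the contacts. The 2 small nucleolar RNA genes, SNORD62A and SNORD62B, share 1 peak of 6 tags with PRRC2B. In all 12 peaks carried more than 1 gene identifier. A peak of 6 tags on the plus strand of chromosome 16, 29997001 to 29997033, named 8 genes, among them TAOK2, SLX1A and SULT1A3.

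Genes with a peak of 5 to 9 tags made up 1.9% of the 20056 protein-coding genes of the table, against 3.85% for peaks of 3 or 4 tags, 0.598% for peaks of 10 or more and 6.02% for peaks of any height. Among long noncoding RNA genes it was 0.109% of 18330. The 20 long noncoding genes included LOC100287944 with 9 tags, LINC00486 with 8, KIF9-AS1 with 6 and 7, LOC339166 with 7, CBR3-AS1 with 6, PVT1 with 5 and ZFAS1 with 5. Of the pseudogenes ACTG1P17 and CATSPER2P1 each had a peak of 7 tags. A pseudogene and its parent gene have similar sequence, so reads of one can be placed on the other.

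Genes with these peaks were long, as in the list as a whole. Their protein-coding members had a median length of 115 kb (quartiles 46.4 and 247 kb), against 138 kb for genes with peaks of 3 or 4 tags, 147 kb for those with taller peaks and 24.1 kb for all protein-coding genes. More than 100 kb was reached by 214 of the 381 (56.2%) and by 16.7% of all protein-coding genes. In the longest of 10 equal length classes, of median length 250 kb, 156 of 2006 held a peak of 5 to 9 tags (7.78%, Wilson interval 6.68 to 9.03). In the shortest class 2 of 2006 did (0.0997%, 0.0273 to 0.363). Among the longest genes with a peak of the set were MACROD2 at 2060 kb, NRXN3, a neurexin gene, at 1700 kb, PDE4D at 1550 kb, CCSER1 at 1480 kb and NAALADL2 at 1370 kb. The shortest were SPACA5B, C12orf57, RPL7A and SLX1B, at 2.0 to 3.69 kb. How strongly each gene is transcribed was not measured here, and its part in the share of genes with a peak was not tested.

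Short genes made up a larger share here than among the lowest peaks. In the 4 shortest length classes 39 genes held a peak of 5 to 9 tags and 33 a peak of 3 or 4 tags, whereas in the 2 longest the numbers were 240 and 552. Genes under 10 kb made up 19 of 381 (4.99%), against 2.2% for peaks of 3 or 4 tags and 1.67% for taller peaks. By exact height, genes under 20 kb made up 2.93% at 3 tags, 8.36% at 4, 12.5% at 5, 16.5% at 6, 7.55% at 7, 6.82% at 8 and 4.17% at 9. No peak in the list had a P above 0.0494, and every peak of 3 tags had a PH0 of 0.00. The part of a limit on P in the share of short genes was not tested. These shares are descriptions without a test, since genes are not replicates.

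**Figure D3:**
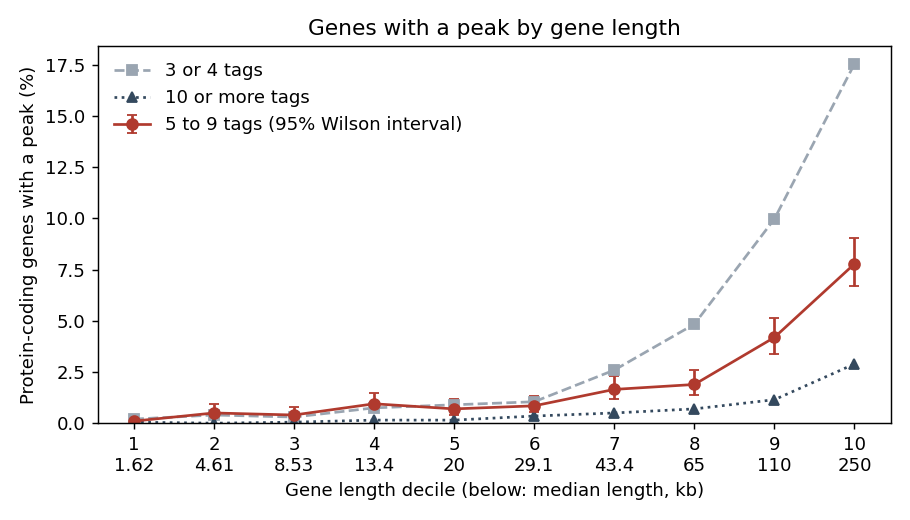
Share of protein-coding genes with a peak (y axis, percent) in 10 equal classes of gene length (x axis, with the median length in kb), for peaks of 5 to 9 tags with 95% Wilson intervals that cover counting error only, and for peaks of 3 or 4 and of 10 or more tags. The share for 5 to 9 tags goes from 0.0997% in the shortest class to 7.78% in the longest; the curve for 3 or 4 tags lies below it in classes 2 to 4 and above it in the others.

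As in the other height classes, most genes held only 1 peak of the class. Of the 409 genes 389 (95.1%) held 1 peak of 5 to 9 tags, 19 held 2 and ANKRD30BL held 4, and 345 (84.4%) had no peak of any other height. Of genes with peaks of 3 or 4 tags 93.5% held 1 such peak, and of those with peaks of 10 or more 92.9% did. The median distance to the nearest other peak on the strand was 969774 nt, and 8 of the 412 (1.94%) had one within 1000 nt, against 17.1% of the taller peaks and 0.122% of the lower ones. Those 8 were in 5 genes: ANKRD30BL with 3, PID1 with 2, and LINC00486, CTNNAL1 and MACF1 with 1 each.

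Where a gene held several, they were usually far apart. In the 20 such identifiers the smallest distance between centres had a median of 40.7 kb, and it was under 1000 nt in 2. In PID1, which encodes a phosphotyrosine interaction domain protein, peaks of 8 and 5 tags lay 112 nt apart and next to one of 21 tags. In ANKRD30BL, peaks of 6, 7, 8 and 9 tags lay within 2003 nt. RBM39, a splicing factor gene, had peaks of 5 tags each 1119 nt apart, with 10 and 18 CLIPper reads (chromosome 20, 34300457 to 34300490 and 34301578 to 34301608, minus strand). The antisense RNA gene KIF9-AS1 had 6 and 7 tags 9285 nt apart, with 13 and 12 reads. GPR107 had 9 and 8 tags 11066 nt apart, with 23 and 8 reads.

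Other pairs lay further apart in long genes. In TACC2, which encodes a centrosomal coiled-coil protein, peaks of 9 and 7 tags lay 33964 nt apart, which is 12.8% of the gene's length in the table, with 15 and 7 reads. In MACROD2 peaks of 8 and 6 tags lay 22845 nt apart, 1.11% of its length. UBR4, a giant ubiquitin ligase gene, had 6 and 5 tags 39294 nt apart, JMJD1C had 5 and 5 tags 40137 nt apart, and ENAH, which encodes an actin filament elongation factor, had 5 and 5 tags 41174 nt apart. In TENM2, a teneurin adhesion gene, peaks of 6 and 8 tags were separated by 701953 nt, which is 54.6% of the gene's length in the table. For IGSF1 and YY1AP1 the distance between both peaks, 153767 and 67116 nt, exceeded the length of the gene in the table, 15952 and 29555 nt, so that both peaks cannot lie within the gene as the table gives it. The unnamed identifier was given to peaks in MAPK8 and NCOA4 that are 2055464 nt apart.

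**Figure D4:**
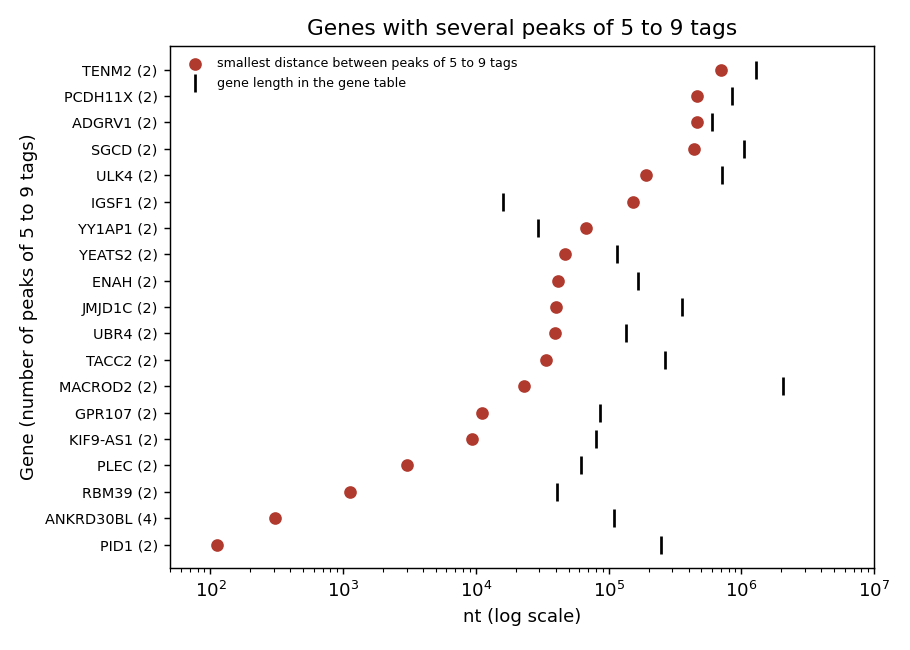
Smallest distance between the centres of peaks of 5 to 9 tags (red points, nt, log scale) for each named gene with at least 2 such peaks, with the gene's length in the table as a black tick. Points go from 112 nt in PID1 to 701953 nt in TENM2, and IGSF1 and YY1AP1 have the point to the right of the tick.

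A taller peak was present in 21 of the 409 genes, usually at a distance. The gap to the nearest peak of 10 or more tags was 15025 nt in HDAC8 (5 beside 17), 20231 nt in ZYG11B (9 tags beside 26), 144822 nt in EIF4G3 (5 beside 34), 195394 nt in TENM3 (7 beside 49) and 320691 nt in ZNF385D (7 beside 32). It was under 1000 nt in 5 genes, namely ANKRD30BL (36 nt at the closest), CTNNAL1 (55 nt, 8 tags beside 16), PID1 (56 nt), LINC00486 (137 nt, 8 tags beside 25) and MACF1 (996 nt, 5 tags beside 14).

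Some of the genes held a U2 snRNA copy within their bounds. By containment in the gene annotation 8 of 408 named genes did (1.96%), against 5 of 817 (0.612%) for peaks of 3 or 4 tags and 17 of 126 (13.5%) for peaks of 10 or more. They were CHEK1, a DNA damage checkpoint kinase gene, with a peak of 7 tags and 18 reads, PTPRG with 8 tags and 11 reads, SMARCA2, a chromatin remodelling ATPase gene, with 7 tags and 9 reads, EXOC6B with 6 tags and 9 reads, PCDH11X with 5 and 6 tags, and HDAC8, TENM3 and ZYG11B. The last 3 hold a taller peak as well. PCDH11X, a protocadherin gene, holds none in the height list, but its Ensembl gene had 7 CLIPper intervals. The highest of them had 717 reads and lay on no height-list peak. The read numbers of all 7 sum to 1572, in which reads listed under more than 1 interval would count repeatedly. The peaks are in hg19 and the table is of GRCh38.p14, so whether any of them lies on the copy itself was not analysed here. No share with a U2 copy was counted over all genes of the table or over genes of similar length. Whether 1.96% is above or below that background was therefore not tested.

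Several transcripts of proteins that act on RNA held a peak. All gene lists and families below were chosen with earlier results of these data known, so their shares are descriptions only. Among 34 other regulators of splicing 5 held a peak of 5 to 9 tags (14.7%), beside 1.9% of all protein-coding genes. They were TIAL1 with 9 tags, KHDRBS3, a STAR-family RNA-binding protein gene, with 7 tags and 23 reads, MBNL1, a muscleblind splicing regulator gene, with 6 tags and 21 reads, QKI, also of the STAR family, with 5 tags and 5 reads, and RBM39. Among 30 genes for hnRNP proteins, which coat nascent RNA, and their relatives 3 did (10%, Wilson interval 3.46 to 25.6). They were HNRNPH1 with 7 tags and 7 reads, HNRNPK with 5 tags and 8 reads, and PTBP2 with 5 tags and 7 reads. Of 21 genes for SR proteins and their relatives 1 did, ACIN1 with 5 tags (4.76%, 0.846 to 22.7). Of 34 genes for U2 and U2-associated proteins 0 did, while 3 held a peak of 3 or 4 tags. With 34 genes a count of 0 allows a Wilson upper limit of 10.2%, above the 1.9% of all protein-coding genes, so it sets the list apart in neither direction.

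Of 45 genes for histone methyltransferases and demethylases 7 held a peak (15.6%, Wilson interval 7.75 to 28.8), beside 1.9% of all protein-coding genes. EZH2, the catalytic subunit of a Polycomb complex, had 7 tags and 8 reads (chromosome 7, 148568483 to 148568516, minus strand). KMT2A, a histone H3 lysine methyltransferase gene, had 6 tags and 10 reads (chromosome 11, 118368116 to 118368149, plus strand). PHF8 had 6 tags and 12 reads, and SMYD3, KDM2A and KMT2D had 5 tags each with 5, 7 and 5 reads. JMJD1C was the seventh. Chromatin remodelling genes gave 3 of 27 (11.1%, 3.85 to 28.1): SMARCA2, and ARID1B and CHD1 with 5 tags each. Genes of histone acetylation gave 2 of 42 (4.76%, 1.32 to 15.8), NCOA1 with 9 tags and HDAC8 with 5.

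Several genes of the cell's framework and surface held a peak, with the 1.9% of all protein-coding genes as background for each list. Of 56 actin cytoskeleton genes 7 held a peak (12.5%, 6.19 to 23.6): SYNE2, which encodes a nesprin that links the nucleus to actin, with 7 tags, PDLIM5 with 7, PLEC, ACTN4 and SPTBN1, which encode actin crosslinking or linking proteins, with up to 6, 5 and 5, and MACF1 and ENAH with 5. Of 41 genes for microtubules and their motors 1 did, DYNC2H1 (2.44%, 0.432 to 12.6). Adhesion genes gave 3 of 40, PTK2, the focal adhesion kinase gene, with 7 tags and 10 reads, LPP with 6 and NRXN3 with 5. Genes of invasion, metastasis and matrix gave 3 of 45, among them ADAMTS6, a matrix protease gene, with 8 tags and 16 reads and MMP14, a membrane-bound collagenase gene, with 6 tags and 13 reads.

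PLEC, which encodes the linker protein plectin, had peaks of 6 and 5 tags 3022 nt apart on the minus strand of chromosome 8. The taller had 6 CLIPper reads and the other lay on no CLIPper interval. ERRFI1, an inhibitor of the EGF receptor, had 5 tags and 6 reads (chromosome 1, 8075255 to 8075286, minus strand). Both intervals were thus below the lower quartile of the set, 7 reads. Over its whole Ensembl gene PLEC had 6 CLIPper intervals whose read numbers sum to 37, the highest being 8, and ERRFI1 had 1 interval. ERBB2, a receptor tyrosine kinase gene, had 5 tags and 9 reads. With ERRFI1 it made 2 of 50 genes of receptor tyrosine kinase signalling (4.0%, 1.1 to 13.5), beside 1.9% of all protein-coding genes.

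Of 53 genes of TGF-beta, Wnt, Notch and Hippo signalling 6 held a peak (11.3%, 5.29 to 22.6), beside 1.9% of all protein-coding genes. MAML2, a Notch coactivator gene, and TEAD1, the Hippo pathway transcription factor gene, had 7 tags each with 9 and 8 reads. TGFBR3, a TGF-beta co-receptor gene, had 6 tags and 12 reads, and 5 tags were found in SMAD3 (10 reads), SKI (9 reads) and TCF7L2 (6 reads). Of 36 listed ubiquitin ligase genes 5 held one (13.9%, 6.08 to 28.7): HERC4 with 8 tags and 17 reads, FBXW7, the substrate receptor for cyclin E and MYC, with 6 tags and 27 reads, NEDD4 with 6 tags and 9 reads, UBR4, and HUWE1 with 5 tags and 5 reads.

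Lists of general cell machinery gave low counts with wide intervals. Cytoplasmic ribosomal protein genes gave 2 of 77 (2.6%), RPL7A with 6 tags and 9 reads and RPL31 with 5 tags and 9 reads, which is near the 1.9% of all protein-coding genes. Translation factor genes gave 2 of 44 (4.55%), EIF3A with 6 tags and EIF4G3 with 5, and nuclear pore and transport genes 1 of 42, NUP214 with 6. Replication-dependent histone genes, whose transcripts have no introns, gave 0 of 46, with a Wilson upper limit of 7.71%. Of 21 nuclear long noncoding RNAs MALAT1 and PVT1 held a peak (9.52%, 2.65 to 28.9), beside 0.109% of all 18330 long noncoding RNA genes. That list too was chosen with earlier results known, so the difference between these shares is no evidence about nuclear RNAs. Markers of other cell types gave 0 of 22 (Wilson upper limit 14.9%), and markers of the line of origin 1 of 9, MMP14.

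Several lists with large shares were made of long genes, but not every list of long genes had a large share. Of 30 very long and fragile-site genes 6 held a peak (20%, median length 1410 kb). The ubiquitin ligase, actin and histone methylation lists had median lengths of 137, 146 and 83.9 kb. The adhesion list, of median length 148 kb, had a share of 7.5%, and the microtubule list, of 102 kb, one of 2.44%. The ribosomal protein list had one of 4.8 kb and the histone list one of 0.491 kb. For comparison, 4.19% of protein-coding genes in length class 9, of median length 110 kb, held a peak. The part of length in each count was not tested, and no list is called particular here. The hnRNP list had a median length of 16.9 kb and a share of 10%.

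**Figure D5:**
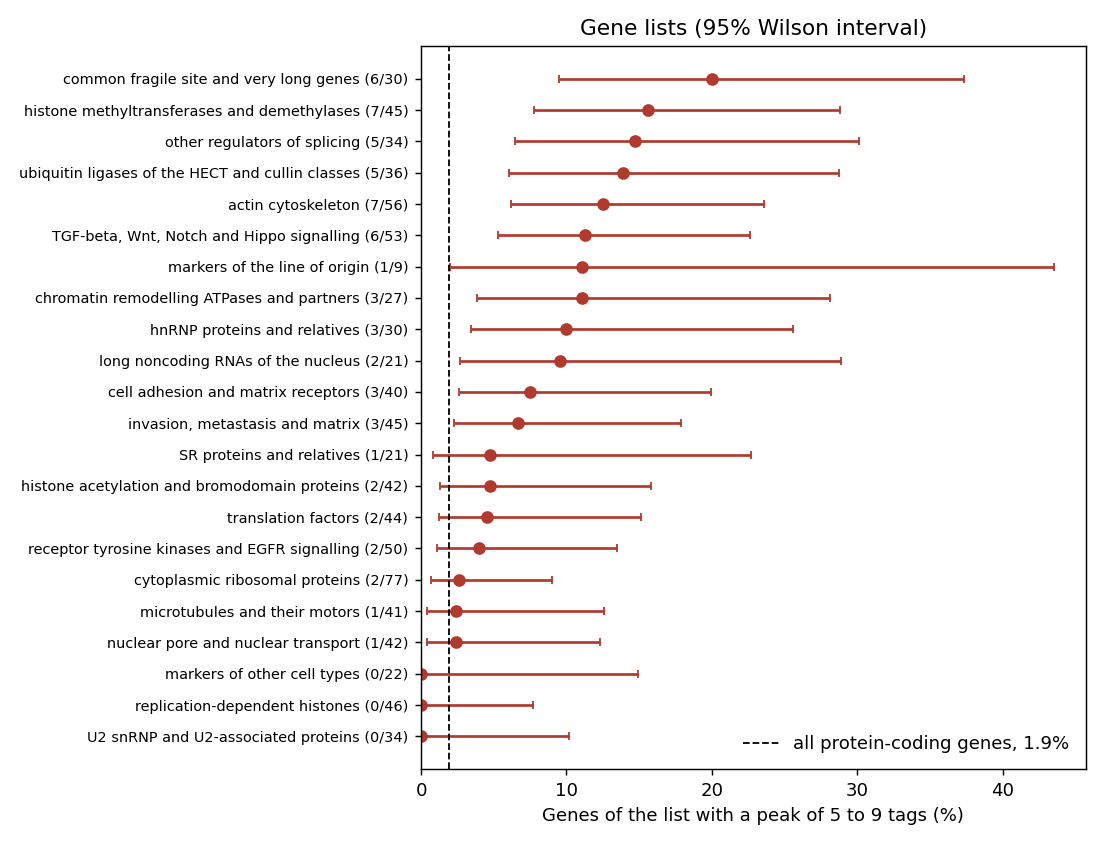
Share of the genes of each list with a peak of 5 to 9 tags (x axis, percent, points) with 95% Wilson intervals that cover counting error only, and the count of genes beside each name (y axis). The dashed line marks the 1.9% of all protein-coding genes, and the points go from 0 for U2 proteins, histones and markers of other cell types to 20% for very long genes.

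Families taken by symbol gave mostly shares near that of all protein-coding genes. Solute carriers held a peak in 9 of 386 cases (2.33%), led by SLC27A5 with 9 tags and SLC25A24 with 8. Zinc finger genes gave 6 of 517 (1.16%), led by ZNF514 with 9 and ZNF114 with 8. Rab GTPases and their regulators gave 4 of 135, with TBC1D7 at 7 tags. Vacuolar sorting and sorting nexin genes gave 4 of 65 (6.15%, 2.42 to 14.8), SNX27 with 8 tags, SNX7 and VPS13C with 7 and VPS13D with 5. Tyrosine phosphatase genes gave 2 of 38 (5.26%, 1.46 to 17.3), PTPRA with 9 and PTPRG with 8. Kinesins gave 2 of 42 (4.76%, 1.32 to 15.8), KIF6 and KIF18B, and DEAD and DEAH helicases 1 of 54 (1.85%), DHX40 with 9 tags. Deubiquitinases gave 2 of 77, USP50 with 8 tags and USP20 with 5, and TRIM and RNF ligases 2 of 162, RNF168 with 9 and RNF180 with 7. Genes of RNA-binding motif proteins gave 2 of 39 (5.13%, 1.42 to 16.9), RBM20 with 6 tags and RBM39. Tetratricopeptide and WD repeat genes gave 3 of 93 (3.23%), WDR27, WDR70 with 6 tags and TTC7B with 5. Protocadherins gave 1 of 66, PCDH11X, while 21 of them held a peak of 3 or 4 tags. ADAM and ADAMTS proteases gave 1 of 39 (2.56%), ADAMTS6, and phosphodiesterases 1 of 26 (3.85%), PDE4D. Olfactory receptor genes, of median length 2.94 kb, gave 0 of 392 (Wilson upper limit 0.97%) and keratin genes, of 1.15 kb, 0 of 149 (2.51%).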

How the data were processed

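SNRPA1 irCLIP was done in 2 replicates of MDA-231-LM2 cells, and 2 peak lists were used. The submitters' processing notes name BWA 0.7, the trimmer cutadapt 1.10 and build hg19. In the height list the authors deposited a signal, the height in tags, with an Entrez identifier, PH0 and P in the name (1454 entries). In the CLIPper list the authors deposited a p-value, with reads in the name (8053 entries, 7651 distinct intervals). Heights, reads and P are the authors' own, used within a list. Repeated intervals were counted once. For an interval on several CLIPper intervals the one with the most reads was taken. For several genes the largest PH0 was taken. Identifiers were named through the RefSeq gene table of GRCh38.p14 (429 of 431 entries of the set), which also gave gene types, lengths, strands, chromosomes and the genes that contain a U2 copy. Its coordinates are not printed. Positions are 1-based hg19.

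No test was run: there is 1 group, no replicate is kept apart, and peaks and genes are not replicates. Wilson and exact Poisson intervals (95%) cover counting error only. The overlap code was tested on simulated intervals. The members and lists were chosen with earlier results of these data known. Named genes were the extremes of reads, ratio, PH0, width and length, genes with several peaks or a taller one, noncoding genes, up to 5 per list (22 lists, 17 families) and 5 recalled genes. The 9-tag genes, genes with a U2 copy and the other genes on no CLIPper interval were named after their values were seen. Some genes and 1 family under these rules are not reported here. Scripts ran in Python 3.11.15 with scipy 1.17.1 for intervals, pandas 2.3.3 and numpy 2.4.6 for tables, and matplotlib 3.10.9 for figures.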

Additional observations from a re-analysis of the deposited data

How the results depend on the processing

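Of 26 alternatives to 12 results, 24 stayed within 1.5 times for counts or within the 95% interval of the value otherwise. The number of peaks was 412, and 431 with every entry counted or 380 with a deposited P under 1e-5. Overlap with CLIPper ran from 95.2% to 96.8%, the ratio of reads to tags from 1.67 to 1.75, the Spearman correlation of height and reads from 0.467 to 0.496, and the median length of protein-coding genes from 115 to 126 kb. The lists and families together named 97 genes with a peak, against 191 for peaks of 3 or 4 tags and 24 for peaks of 10 or more, which hold other numbers of peaks by construction. Unknown depth limits every count. No paired analysis was possible because only 1 group was studied, and neither replicate could be left out of pooled lists.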

Other observations

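The genes of these peaks held many weaker CLIPper sites. The 405 Ensembl identifiers at the peaks had 910 distinct CLIPper intervals, of which 525 lay on a peak of the height list of any height and 385 on none. The latter had a median of 4 reads against 10 for the former, with 41 at 10 or more reads and a highest value of 717, in PCDH11X.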
